A study of Rattus norvegicus with 15 samples.

Results

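The 8 genes described here encode parts of the route from phosphoinositide 3-kinase (PI3K) through AKT to mTOR and the FOXO transcription factors: Pik3ca, Akt1, Tsc1, Mtor, Rptor, Rictor, Foxo1 and Foxo3. They were chosen by name as core components of this route, with earlier results of these data known. All 8 were found among the 22250 genes of the deposited table of rat lung RNA. Their Ensembl identifiers there are ENSRNOG00000056371 (Pik3ca), ENSRNOG00000028629 (Akt1), ENSRNOG00000011470 (Tsc1), ENSRNOG00000009615 (Mtor), ENSRNOG00000003821 (Rptor), ENSRNOG00000011341 (Rictor), ENSRNOG00000013397 (Foxo1) and ENSRNOG00000000299 (Foxo3). The 15 libraries came from wild-type rats in 3 groups of 5. Control rats are labelled as normal controls. COPD rats, a model of chronic obstructive pulmonary disease, received LPS/Smoke through the trachea. WDD rats had the same tracheal exposure and also received Wendan Decoction, a herbal preparation of traditional Chinese medicine, by the intragastric route. The sources used here name no dose, duration, age or strain. Whether every library came from its own rat is not stated, so p-values measure only the spread between these libraries.

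PI3K, whose alpha catalytic subunit is encoded by Pik3ca, makes a membrane lipid that recruits AKT kinases, and growth factor receptors switch it on. AKT inhibits the TSC complex, which contains the Tsc1 product and restrains mTOR, and it phosphorylates FOXO factors so that they leave the nucleus. The mTOR kinase works in mTORC1, built around raptor (Rptor), which drives protein synthesis, and in mTORC2, built around rictor (Rictor), which phosphorylates AKT. These steps are controlled largely by phosphorylation, which RNA levels do not report.

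Levels are given in FPKM, fragments scaled to transcript length and library size, as deposited by the authors. Foxo1, Rictor and Tsc1 had the lowest COPD levels relative to control, and their promoter windows are shown because these genes fell together. Each is the 250 bases before the RefSeq start in build GRCr8, 5′ to 3′ on the gene's strand, with GC boxes (GGGCGG or its reverse complement) in capitals. The windows lie at chr2:138462724-138462973 for Foxo1, chr2:57539029-57539278 for Rictor and chr3:32367447-32367696 for Tsc1, all on the + strand.
Foxo1: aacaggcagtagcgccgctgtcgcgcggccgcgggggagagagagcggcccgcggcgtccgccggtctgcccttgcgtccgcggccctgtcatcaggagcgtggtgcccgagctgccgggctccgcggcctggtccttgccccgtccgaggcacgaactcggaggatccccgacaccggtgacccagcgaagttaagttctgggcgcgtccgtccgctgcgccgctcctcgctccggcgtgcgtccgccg
Rictor: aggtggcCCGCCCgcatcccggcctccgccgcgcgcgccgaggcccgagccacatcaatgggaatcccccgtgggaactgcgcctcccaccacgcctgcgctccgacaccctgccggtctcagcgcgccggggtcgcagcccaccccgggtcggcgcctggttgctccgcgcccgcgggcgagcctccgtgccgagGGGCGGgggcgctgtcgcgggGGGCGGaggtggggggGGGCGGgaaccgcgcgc
Tsc1: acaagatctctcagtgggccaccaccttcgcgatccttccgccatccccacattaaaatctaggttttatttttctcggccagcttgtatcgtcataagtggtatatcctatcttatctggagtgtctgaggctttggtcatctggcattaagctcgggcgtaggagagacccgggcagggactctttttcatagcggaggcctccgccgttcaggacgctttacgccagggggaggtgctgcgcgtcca
Of the 8 genes, 6 had a window in this table. The Rictor window held 4 GC boxes, and the Foxo1 and Tsc1 windows held no match to this motif, to the forkhead core GTAAACA or to the E-box CACGTG. All motifs were searched on both strands. Among 33469 windows of this length, 30.5% held a GC box, 3.21% the forkhead core and 5.59% the E-box. GC content was 74.4% for Foxo1, 80.4% for Rictor and 53.6% for Tsc1, against a median of 51.2% over all windows. The 3 windows thus differed in base composition, and they shared none of the motifs searched.

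The libraries differed in ways that touch every level below. Mitochondrial genes took 5.19% to 9.62% of the FPKM sum in control, 33.7% to 65.0% in COPD and 19.1% to 26.5% in WDD libraries. A measure of transcript length, the median log2 level of 31 long housekeeping transcripts minus that of 37 short ones, was -2.59 to -1.64 in control, -4.35 to -3.27 in COPD and -4.00 to -3.38 in WDD libraries. The median log2 fold change of the long list was -1.58 in COPD against control and -0.90 in WDD against control, and that of the short list was 0.60 and 0.90. After median-of-ratios scaling these were -0.89 and -0.63 for the long list and 1.44 and 1.16 for the short list. Of the 31 long transcripts, 31 and 28 were called lower with deposited values, where 66.4% and 31.0% of all genes were. Of 10 neutrophil markers, 9 rose in COPD against control, where 8.23% of all genes rose. The summed level of these markers was 152 to 246 FPKM in control, 14705 to 49790 in COPD and 103 to 674 in WDD libraries. Of the markers tested, 7 of 7 for alveolar type 1 cells, 6 of 8 for alveolar type 2 cells, 4 of 6 for endothelium, 8 of 8 for smooth muscle and pericytes, 7 of 7 for T cells, 3 of 4 for airway epithelium and 3 of 7 for macrophages fell in COPD against control, where 66.4% of all genes fell. After median-of-ratios scaling of the libraries these were 6, 5, 3, 7, 6, 2 and 3 in the same order, where 32.3% of all genes were lower. Of the same markers, 2 for alveolar type 2 cells and 3 for macrophages were then higher, where 30.2% of all genes were. Summed T cell markers stood at 132 to 191 FPKM in control, 19.2 to 35.0 in COPD and 139 to 197 in WDD libraries. Of these markers 7 of 7 rose in WDD against COPD, where 57.1% of all genes rose. Summed alveolar type 2 markers stood at 16531 to 25266 FPKM in control, 3090 to 14383 in COPD and 19643 to 23023 in WDD libraries, while the endothelial marker Cldn5 was listed at 0 in every library. Over all genes, COPD 5 stood apart from the other COPD libraries: the SD of the log2 difference was 0.90 to 0.97 in pairs with it and 0.40 to 0.56 in the other COPD pairs. WDD 4 and WDD 5 were closer to each other (0.235) than any other pair of WDD libraries (0.35 to 0.46), and were kept as 2 samples. The part of cell makeup, RNA length and mitochondrial share in the changes of the 8 genes was not tested. In whole lung, fewer cells of a type and less RNA per cell cannot be told apart.

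All 8 genes passed the filter on low values, 5 or more libraries with an FPKM of 1 or above, which 13172 genes passed. Rictor reached an FPKM of 1 in 11 of 15 libraries and Foxo1 in 14, and the other members did so in all 15. In COPD against control all 8 genes were lower with the deposited values, against 66.4% of all genes tested that were called lower. Calls rest on a limma fit over all genes on log2(FPKM + 1), with an adjusted p threshold of 0.05. For 7 of the 8, all but Foxo3, no COPD library reached the lowest control library, which held for 52.3% of all genes. The median gene had a log2 fold change of -0.81 with deposited values and of -0.05 after median-of-ratios scaling, so changes of the 8 genes are given on both scales. After scaling, 4 of the 8 stayed lower (Foxo1, Rictor, Tsc1 and Rptor), where 32.3% of all genes were lower, and Pik3ca and Akt1 turned higher, where 30.2% of all genes were higher. Foxo1, Rictor and Tsc1 lay well below the median gene on both scales, Foxo3, Mtor and Rptor closer to it, and Pik3ca and Akt1 above it. The median of the long transcripts also lay below the median gene on both scales, and the part of transcript length was not tested.

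**Figure D1:**
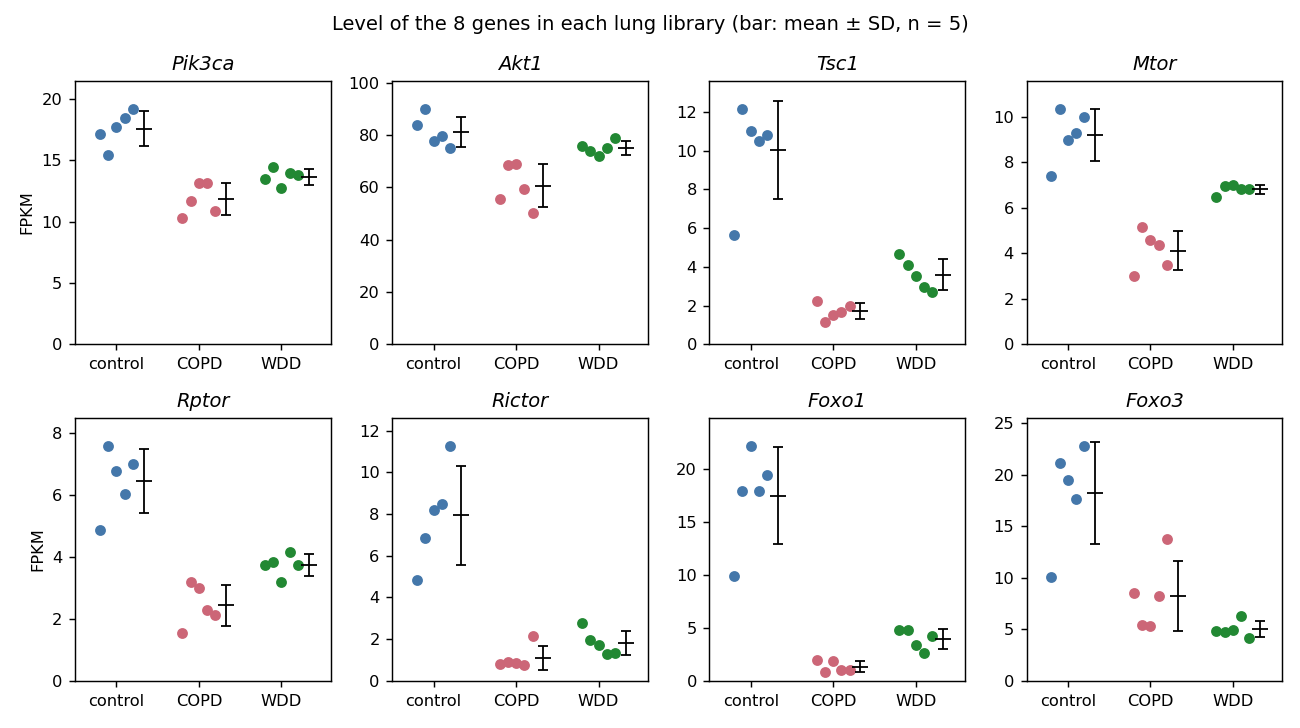
FPKM of each of the 8 genes (vertical axis, from 0) in the 5 libraries of each group, with the mean ± SD beside the points. Every COPD point of Foxo1, Rictor and Tsc1 lies below every control point, and control 1 is the lowest control library for 6 of the 8 genes.

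Foxo1 encodes a forkhead factor that acts in metabolism, stress responses, endothelial quiescence and lymphocyte homing. Its level was 9.91, 17.9, 22.2, 17.9 and 19.4 FPKM in control 1 to 5, 1.95, 0.806, 1.87, 1.05 and 1.02 in COPD 1 to 5, and 4.81, 4.81, 3.43, 2.64 and 4.19 in WDD 1 to 5. The 3 groups did not overlap, with every WDD library between the COPD and the control libraries. The COPD mean was 7.67% of the control mean, 1.34 ± 0.530 against 17.5 ± 4.57 FPKM (SD, n = 5 each), and the WDD mean was 3.98 ± 0.938 FPKM. On the log2(FPKM + 1) scale, which understates changes of low genes, Foxo1 fell by 2.97 (SE 0.21) in COPD against control in limma, adjusted p = 9.12e-09. Only 1.30% of genes tested had a more negative value. It was 1.10 (SE 0.21) higher in WDD than in COPD, limma adjusted p = 0.000359, and 1.87 lower in WDD than in control (log2 fold change -1.87 ± 0.21 SE, limma adjusted p = 2.67e-05). After scaling the values were -2.26 in COPD against control, 0.67 in WDD against COPD (limma adjusted p = 0.0244) and -1.59 in WDD against control. Of 4 scalings tried, 3 kept the call in WDD against COPD, and the lowest value was 0.45.

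Foxo3 encodes a related forkhead factor, known for stress resistance, autophagy and the control of cell death. Its level was 10.1, 21.1, 19.5, 17.7 and 22.8 FPKM in control 1 to 5, 8.52, 5.46, 5.33, 8.21 and 13.8 in COPD 1 to 5, and 4.80, 4.79, 4.99, 6.32 and 4.17 in WDD 1 to 5. Control 1 lay below COPD 5, so control and COPD overlapped, and WDD overlapped COPD but not control. The WDD mean was 5.01 ± 0.793 FPKM, 27.5% of the control mean of 18.3 ± 4.93 FPKM, and the COPD mean was 45.2% of it. Foxo3 was lower in COPD than in control by limma on the deposited values (log2 fold change -1.08 ± 0.24 SE, adjusted p = 0.000564), but after scaling the value was -0.22 with a limma adjusted p of 0.509. In WDD against control it was -1.64 ± 0.24 (SE, limma adjusted p = 9.57e-05) and -1.36 after scaling, and the call held in every setting tried. Against COPD, the WDD value was -0.56 ± 0.24 (SE, limma adjusted p = 0.0473) and -1.14 after scaling. This last call was lost in 16 of 28 alternative settings, although the direction was kept in all of them, with values from -1.14 to -0.28. It was lost without any one of control 2, 3 and 4, COPD 1, 4 and 5, and WDD 1, 2, 3 and 5, with limma adjusted p from 0.0528 to 0.117. Leaving out COPD 5, the library with the highest COPD level, gave -0.37 (limma adjusted p = 0.117). Foxo3 was the only one of the 8 genes called lower in WDD against COPD, where 6.63% of all genes were called lower.

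The 2 factors therefore moved apart, and the ratio of their FPKM values within each library, which no scaling of libraries can change, was compared. Long and short transcripts also moved apart, as given above. Ratios of 2 genes here and below are thus not free of differences in transcript length, whose part was not tested. The log2 ratio of Foxo1 to Foxo3 was -0.03, -0.24, 0.18, 0.02 and -0.23 in control, -2.12, -2.76, -1.51, -2.97 and -3.75 in COPD, and 0.00, 0.01, -0.54, -1.26 and 0.01 in WDD libraries 1 to 5. Every COPD library lay below every control and every WDD library. The means were -0.06 ± 0.18, -2.62 ± 0.85 and -0.36 ± 0.56 (SD, n = 5 each). The difference was -2.56 in COPD against control and 2.27 in WDD against COPD, each with p = 0.00794 in an exact two-sided permutation test, the smallest that 5 against 5 libraries allow, and 0.0185 after adjustment over 21 ratio tests. In WDD against control it was -0.30, with an adjusted exact permutation p of 0.448. The log2 ratio was near 0 in the 5 control and in 3 of 5 WDD libraries, while the WDD means of both genes stood well under those of control, at 22.8% of it for Foxo1 and 27.5% for Foxo3. The log2 ratio of Foxo1 to Akt1 was -2.26 ± 0.50 in control, -5.58 ± 0.60 in COPD and -4.27 ± 0.36 in WDD, and all 3 differences had an adjusted exact permutation p of 0.0185.

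**Figure D2:**
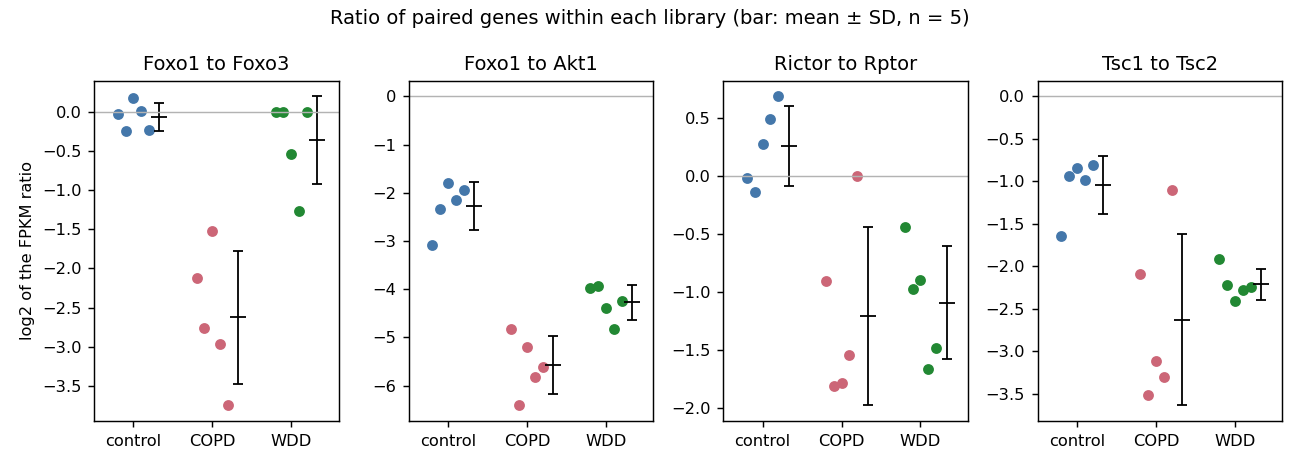
Log2 ratio of the FPKM values of paired genes within each library (vertical axis), for 5 libraries of each group, with the mean ± SD. Foxo1 to Foxo3 separates COPD from both other groups, whereas Rictor to Rptor and Tsc1 to Tsc2 are below control in the WDD libraries, with COPD 5 apart from the other COPD libraries.

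Foxo4, the third member of the family with a sizeable level, stood at 23.3 FPKM in control, 9.36 in COPD and 21.1 in WDD as group means. Its log2 fold change was -1.26 in COPD against control and 1.13 in WDD against COPD, both called by limma with adjusted p of 6.01e-06 and 4.78e-05. After scaling these were -0.38 (limma adjusted p = 0.108) and 0.52 (limma adjusted p = 0.0450). Foxo6 was low throughout, with 3.20 FPKM in control, 0.318 in COPD and 1.57 in WDD. Unlike Foxo3, both had a higher mean in WDD than in COPD.

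Upstream, Pik3ca and Akt1 stayed within a narrower range than the other members. Pik3ca stood at 15.5 to 19.2 FPKM in control, 10.3 to 13.2 in COPD and 12.7 to 14.5 in WDD libraries. Akt1, the most abundant of the 8 by FPKM, stood at 75.1 to 89.8 in control, 50.03 to 69.0 in COPD and 71.9 to 78.9 in WDD libraries. Akt1 did not overlap between COPD and WDD libraries, and it did overlap between WDD and control libraries. In COPD against control, Pik3ca was -0.53 ± 0.11 (log2 fold change, SE, limma adjusted p = 0.000391) with deposited values and 0.34 (limma adjusted p = 0.00678) after scaling. Akt1 was -0.42 ± 0.11 (limma adjusted p = 0.00308) and 0.50 (limma adjusted p = 0.000219) in the same comparison, so the direction of both genes depended on the scale. Between WDD and COPD, Pik3ca was 0.20 (limma adjusted p = 0.134) and -0.41 after scaling, and Akt1 was 0.31 (limma adjusted p = 0.0246) and -0.33 after scaling. Without WDD 5 the Akt1 value was 0.30 (limma adjusted p = 0.0558). Against Pik3cb, the gene of the beta catalytic subunit, the log2 ratio of Pik3ca was 0.75 higher in both COPD and WDD than in control (adjusted exact permutation p = 0.0417 and 0.0185). The COPD value ranged from 0.64 to 0.87 when one library was left out, and its call was lost without any library but control 1. The ratio of Akt1 to Akt2 was 0.59 higher in WDD than in control (adjusted exact permutation p = 0.0185), and 0.55 higher in COPD, not past the threshold (0.128). Without COPD 5 the latter was 0.76 (adjusted exact permutation p = 0.0278).

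Tsc1 encodes hamartin, which stabilises the TSC complex that restrains mTORC1. Its level was 5.65, 12.1, 11.02, 10.5 and 10.8 FPKM in control 1 to 5, 2.24, 1.14, 1.52, 1.64 and 1.98 in COPD, and 4.67, 4.09, 3.51, 2.94 and 2.71 in WDD libraries. The 3 groups did not overlap, with WDD in between, and control 1 stood close to the highest WDD library. The log2 fold change was -2.004 ± 0.19 (SE, limma adjusted p = 1.31e-07) in COPD against control and -1.25 ± 0.19 (limma adjusted p = 0.000147) in WDD against control, or -1.27 and -0.98 after scaling, and both calls held in every setting. In WDD against COPD it was 0.76 ± 0.19 (limma adjusted p = 0.00268), but after scaling 0.30 (limma adjusted p = 0.265). Tsc2, which encodes the partner tuberin, was -0.88 in COPD against control with deposited values and -0.016 (limma adjusted p = 0.952) after scaling, with group means of 20.1, 11.2 and 16.5 FPKM in control, COPD and WDD. The log2 ratio of Tsc1 to Tsc2 was 1.58 lower in COPD (difference -1.58, exact permutation p = 0.0159, adjusted 0.0333) and 1.17 lower in WDD than in control (difference -1.17, adjusted exact permutation p = 0.0185). In COPD 5 this ratio was -1.10, above the -2.09 to -3.52 of the other COPD libraries. The COPD call was kept without control 1 (-1.74) and without COPD 5 (-1.97) and lost without any one of the other 8 libraries.

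Rictor had the second lowest COPD level relative to control among the 8 genes. Its level was 4.84, 6.87, 8.21, 8.47 and 11.3 FPKM in control 1 to 5, 0.823, 0.907, 0.870, 0.783 and 2.14 in COPD, and 2.76, 1.95, 1.72, 1.31 and 1.33 in WDD libraries. COPD 5 was the high library of its group and overlapped the WDD libraries, while no COPD or WDD library reached the lowest control. Rictor was -2.08 ± 0.21 (log2 fold change, SE, limma adjusted p = 2.61e-07) in COPD against control and -1.65 ± 0.21 (limma adjusted p = 5.56e-05) in WDD against control, or -1.42 and -1.37 after scaling. The value for WDD against COPD was 0.43 ± 0.21 (limma adjusted p = 0.0839), 0.05 after scaling (limma adjusted p = 0.869) and -0.21 after quantile normalisation. Without COPD 5 it was 0.59 (limma adjusted p = 0.0142).

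Rptor, the mTORC1 counterpart, was lower by less. It stood at 4.88, 7.57, 6.75, 6.01 and 6.99 FPKM in control, 1.54, 3.20, 3.003, 2.29 and 2.13 in COPD, and 3.74, 3.82, 3.20, 4.17 and 3.74 in WDD libraries 1 to 5. All control libraries lay above all others, and the lowest WDD library, at 3.202 FPKM, was just above the highest COPD library, at 3.197. Rptor was -1.13 ± 0.15 (log2 fold change, SE, limma adjusted p = 5.78e-06) in COPD against control, -0.40 (limma adjusted p = 0.0122) after scaling. Over the 4 scalings tried, Rptor ranged from -1.58 to -0.06 in COPD against control (limma adjusted p up to 0.697). In WDD against control Rptor ranged from -0.98 to -0.22 (limma adjusted p up to 0.171), and each call held in 3 of the 4. In WDD against COPD it was 0.48 ± 0.15 (limma adjusted p = 0.0120) but 0.00 after scaling. The log2 ratio of Rictor to Rptor was -0.01, -0.14, 0.28, 0.49 and 0.69 in control, -0.91, -1.82, -1.79, -1.55 and 0.00 in COPD, and -0.44, -0.97, -0.89, -1.67 and -1.49 in WDD libraries. WDD lay below control in every library (difference -1.36, adjusted exact permutation p = 0.0185), and COPD did so except in COPD 5 (difference -1.47, exact permutation p = 0.0238, adjusted 0.0417). Without COPD 5 the COPD difference was -1.78, and the call was lost without any one of the other 9 libraries, with values from -1.57 to -1.32. COPD and WDD did not pass the threshold against each other (difference 0.12, adjusted exact permutation p = 0.842).

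Mtor itself stood at 7.39, 10.3, 8.98, 9.28 and 10.0005 FPKM in control, 2.98, 5.14, 4.57, 4.38 and 3.48 in COPD, and 6.49, 6.94, 7.01, 6.84 and 6.80 in WDD libraries 1 to 5. The 3 groups did not overlap, and the WDD libraries were tightly grouped. Mtor was -1.01 ± 0.14 (log2 fold change, SE, limma adjusted p = 5.67e-06) in COPD against control and 0.63 ± 0.14 (limma adjusted p = 0.000909) in WDD against COPD. After scaling these were -0.21 (limma adjusted p = 0.0913) and 0.09 (limma adjusted p = 0.511), close to the median gene. Relative to Mlst8, which encodes a subunit of both complexes, Mtor differed by 0.26 in COPD against control and by -0.35 in WDD against COPD, with adjusted exact permutation p of 0.3 and 0.179.

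**Figure D3:**
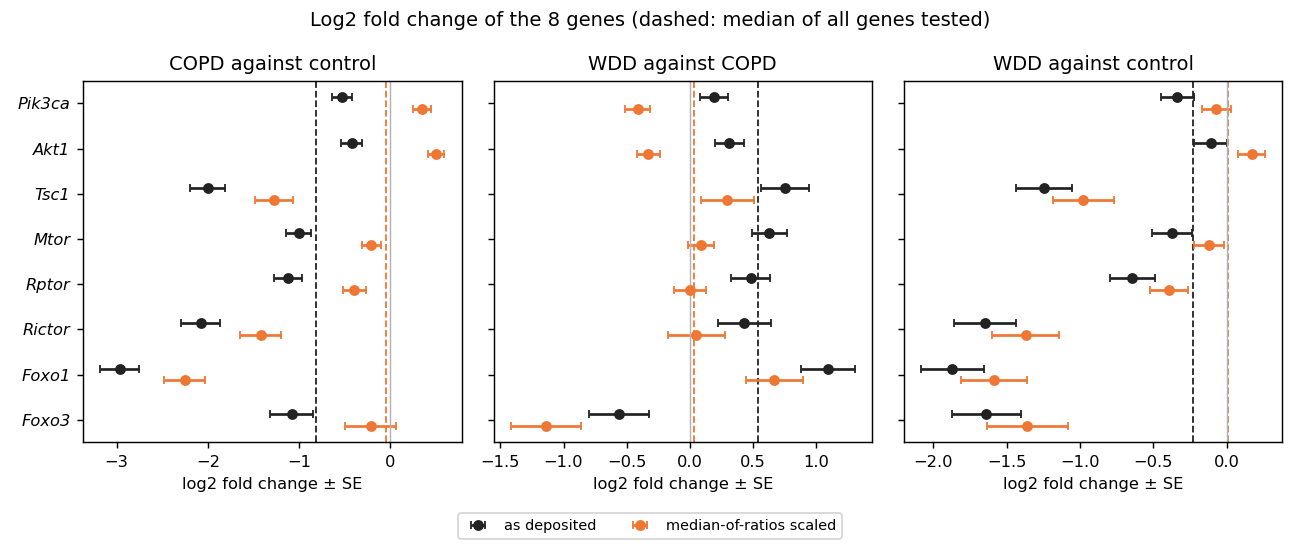
Log2 fold change ± SE of the 8 genes (horizontal axis) in each pair of groups, with deposited values in black and median-of-ratios scaled values in orange, and the median of all genes tested as a dashed line. All but Pik3ca and Akt1 lie left of the median gene on both scales in COPD against control, and all but Akt1 do in WDD against control. Foxo1, Rictor and Tsc1 lie furthest left in COPD against control, where Pik3ca and Akt1 change sign with the scale.

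In WDD against COPD, 5 of the 8 genes were called higher (Foxo1, Tsc1, Mtor, Rptor and Akt1), where 57.1% of all genes were higher and the median gene moved by 0.54, or 0.03 after scaling. For the same 5 genes every WDD library lay above every COPD library, which held for 40.6% of all genes. After median-of-ratios scaling only Foxo1 of the 8 was called higher, where 23.3% of all genes were. Foxo3, Pik3ca and Akt1 were then called lower, where 21.4% were. The Foxo1 call held under 3 of the 4 scalings tried, with values from 0.45 to 1.18 and limma adjusted p up to 0.114. In WDD against control, 7 of the 8 were called lower, all but Akt1 (-0.11, limma adjusted p = 0.485, and 0.17 after scaling), where 31.0% of all genes were lower and the median gene moved by -0.23. For the same 7 every WDD library lay below every control library, which held for 31.4% of all genes. After scaling the number was 5, the 2 FOXO genes, Rictor, Tsc1 and Rptor, where 16.9% of all genes were lower. The calls of Mtor (-0.38, limma adjusted p = 0.0402) and Pik3ca (-0.34, limma adjusted p = 0.0246) in WDD against control were fragile: that of Mtor was lost without any WDD library or any control library but control 1 (-0.39 to -0.34), and that of Pik3ca without control 3, 4 or 5 or WDD 1 or 3 (-0.33 to -0.31). The 3 comparisons share libraries, so their values are not independent of each other.

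Around the 8 genes, 108 further genes of the route were listed by role, of which 98 were tested. In COPD against control, 78 of these were lower, 8 higher and 12 not past the threshold, with a median log2 fold change of -1.03, where 66.4% of all genes were lower and 8.23% higher. After scaling 37 were lower and 23 higher, where 32.3% of all genes were lower and 30.2% higher. Between WDD and COPD, 59 were higher and 9 lower, and after scaling 26 and 22, where 57.1% and 6.63% of all genes, and after scaling 23.3% and 21.4%, were. The counts for WDD against COPD lie near the shares of all genes.

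**Figure D4:**
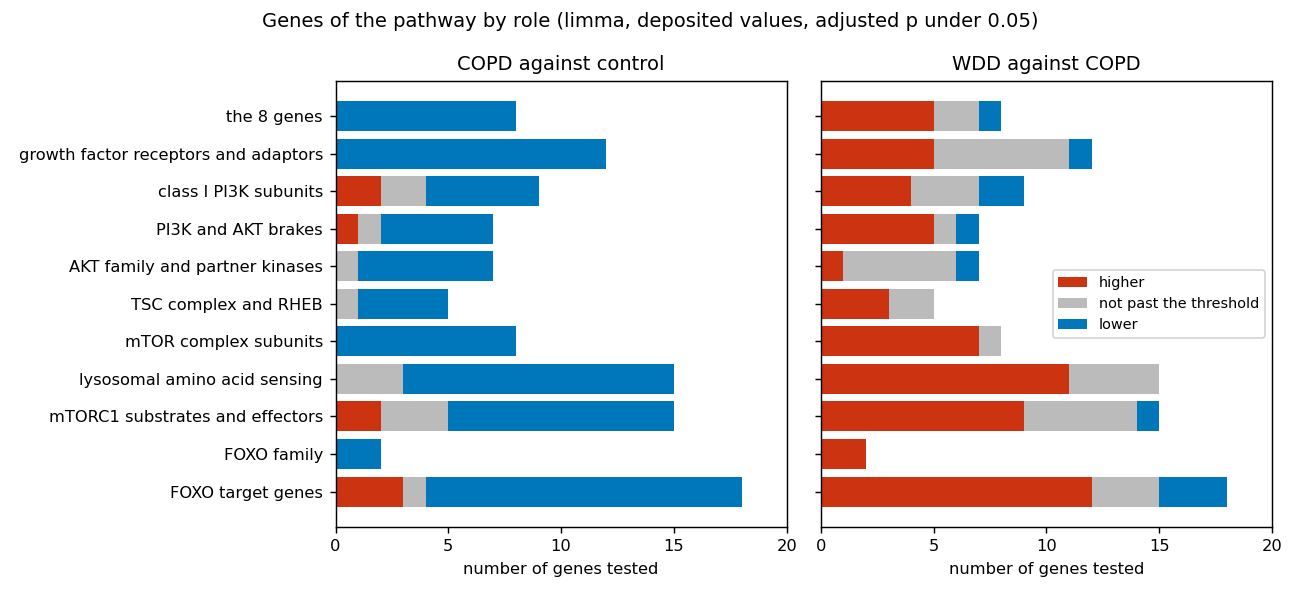
Number of genes tested (horizontal axis) that were higher, lower or not past the threshold in each role, by limma on deposited values. All 12 receptors and adaptors tested were lower in COPD against control, and the genes that were higher there lie among PI3K subunits, PI3K and AKT brakes, mTORC1 effectors and FOXO targets.

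All 12 receptors and adaptors tested fell in COPD against control, 8 of them after scaling, where 66.4% and 32.3% of all genes were lower. Kdr, the VEGF receptor of endothelium, was -2.98 and then 2.19 in WDD against COPD, and Gab1, an adaptor that recruits PI3K, was -2.49 and 1.06. Of 6 endothelial markers tested, 4 fell in COPD against control and 5 rose in WDD against COPD. Of all genes, 66.4% were lower and 57.1% higher in these comparisons. After scaling 3 markers fell and 3 rose, where 32.3% of all genes were lower and 23.3% higher. Kdr is one of those markers, and their part was not tested.

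Of 9 other class I PI3K subunits and adaptors, 5 fell, 2 rose and 2 did not pass in COPD against control, while after scaling 1 fell and 4 rose. Among all genes 66.4% were lower and 8.23% higher there, and 32.3% and 30.2% after scaling. Both that rose with deposited values, Pik3r5 (0.80) and Pik3ap1 (1.10), are known mainly from leukocytes, where the former regulates the gamma isoform and the latter couples immune receptors to PI3K. Both fell in WDD against COPD, by 1.43 and by 1.73. The neutrophil markers rose and fell in the same comparisons, and their part was not tested. Pik3cg, the gene of the gamma isoform itself, went the other way in COPD against control, at -1.04 (limma adjusted p = 7.61e-05), and -0.28 (limma adjusted p = 0.151) after scaling. Pik3cd (-0.26, limma adjusted p = 0.386) and Pik3r6 (0.32, limma adjusted p = 0.380) did not pass there. After scaling these were 0.64 and 1.14, both called higher. The main regulatory subunit gene Pik3r1 was -1.07 in COPD against control and -0.18 after scaling, in step with the median gene.

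Among 7 brakes tested, 5 fell and 1 rose in COPD against control, where 66.4% of all genes were lower and 8.23% higher. After scaling the counts were the same, where 32.3% of all genes were lower and 30.2% higher. Pik3ip1, whose product inhibits PI3K at the membrane, fell by 2.59 on the log2 scale in COPD against control (limma adjusted p = 4.69e-09) and was 2.39 higher in WDD than in COPD (limma adjusted p = 3.60e-08), with group means of 26.6, 3.68 and 23.2 FPKM in control, COPD and WDD. After scaling these were -1.77 and 1.85. Ptpn1, a phosphatase of the insulin receptor, was the one that rose, by 1.46, and it fell by 2.25 in WDD against COPD. Its level in COPD libraries was 48.9 to 221 FPKM, with a median of 61.9 and the highest value in COPD 5, and at most 32.1 in control. Igf1r, Eif4ebp1 and Bcl6, described next, lie outside the naming rule and were chosen after their values were seen.

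Of 7 AKT relatives and partner kinases tested, 6 fell and none rose in COPD against control, yet after scaling 1 fell and 1 rose. Of all genes 66.4% were lower there, and after scaling 32.3% were lower and 30.2% higher. Pdpk1, the kinase that activates AKT, remained low in WDD: -1.42 in COPD and -1.35 in WDD against control, both called. Gsk3b, an AKT substrate, was -0.66 in COPD against control (0.20 after scaling, limma adjusted p = 0.287), -1.11 in WDD against control, and -0.45 in WDD against COPD (limma adjusted p = 0.0303). Like Foxo3, it was thus lower in WDD than in COPD. The same held for Igf1r, with -0.68 in WDD against COPD (limma adjusted p = 0.0116), after -0.77 in COPD against control, or -0.19 with scaling (limma adjusted p = 0.397). Igf1r was low, with group means of 2.91, 1.26 and 0.381 FPKM in control, COPD and WDD, and no WDD library above 0.513.

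Around mTOR, Ddit4, a stress-induced inhibitor of mTORC1, stood at 99.0, 20.3 and 87.7 FPKM in control, COPD and WDD as group means. Its log2 fold change of -2.38 in COPD against control and 2.16 in WDD against COPD kept its call and direction after scaling, at -1.47 and 1.53. The amino acid sensors Sesn1 (-2.02 and 1.79) and Castor1 (-1.99 and 2.29) moved in the same way. All 8 other mTOR complex genes fell in COPD against control, where 66.4% of all genes were lower. After scaling 3 of them fell and 1 rose, where 32.3% of all genes were lower and 30.2% higher. Prr5l was -1.58 (scaled -0.73) and Akt1s1 was -1.11 (scaled -0.21, limma adjusted p = 0.116). Of 15 mTORC1 effectors, 10 fell and 2 rose in COPD against control, where 66.4% of all genes were lower and 8.23% higher. Their median of -0.81 was that of all genes. After scaling 5 fell and 6 rose, where 32.3% of all genes were lower and 30.2% higher. Atg13 (-2.30) and Lpin1 (-2.05) fell on both scales, at -1.45 and -1.45 after scaling. Eif4ebp1, a translation repressor that mTORC1 inactivates, rose by 1.59 in COPD against control and fell by 1.17 in WDD against COPD. Its level in COPD libraries was 32.6 to 155 FPKM, with a median of 107. The lowest value, in COPD 5, was just above the highest control library, at 32.03 FPKM.

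FOXO target genes moved in both directions. Of 18 tested, 14 fell and 3 rose in COPD against control, where 66.4% of all genes were lower and 8.23% higher. Their median was -0.94 against -0.81 for all genes. After scaling 7 fell and 5 rose, where 32.3% of all genes were lower and 30.2% higher. The 3 that rose with deposited values were Sod2 (3.39), Gadd45a (2.59) and Bcl6 (0.79), and all 3 fell in WDD against COPD, by 3.62, 2.17 and 1.30. Bcl6 stood at 20.07 to 69.6 FPKM in COPD libraries, with a median of 24.5 and the highest value in COPD 5. It overlapped the control libraries, at 11.2 to 20.19 FPKM. Sod2, mitochondrial superoxide dismutase, is also induced by inflammation, and neutrophil markers rose in the same libraries, whose part here was not tested. Among those that fell, Sesn3 was -1.87 and Il7r, a lymphocyte receptor, was -2.65 in COPD against control, and they were 0.86 and 1.33 higher in WDD than in COPD, or 0.38 (limma adjusted p = 0.0717) and 0.85 after scaling. T cell markers fell and rose in the same comparisons, and their part was not tested. In WDD against control, 6 of the 18 were lower and none was higher, where 31.0% of all genes were lower. After scaling 3 were lower and 1 higher, where 16.9% of all genes were lower.

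**Figure D5:**
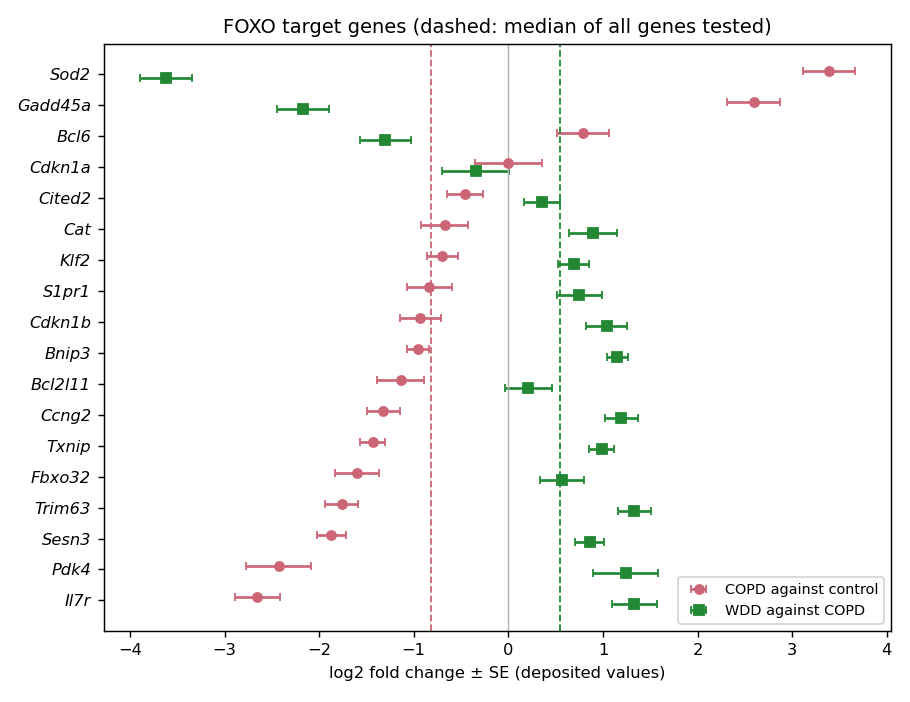
Log2 fold change ± SE (horizontal axis) of the 18 FOXO target genes tested, for COPD against control (circles) and WDD against COPD (squares), with the median of all genes tested as dashed lines. Sod2, Gadd45a and Bcl6 are higher in COPD and lower in WDD against COPD, opposite to most of the list.

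Among the 8 genes, after each library's median log2 value was removed, Foxo1 and Tsc1 varied together over the 15 libraries (Pearson r = 0.94), as did Rictor and Tsc1 (0.90) and Foxo1 and Rictor (0.86), while Foxo1 and Akt1 varied oppositely (-0.79). These are descriptions over libraries that share group and composition. By the same measure, the most alike genes were Sspn and Exph5 for Foxo1 (r = 0.98 each), Cpeb4 and Edem1 for Rictor (0.98 each), Prrc2b and Fam120a for Tsc1 (0.98 each), and Fndc3b (0.96) and Utp6 (0.95) for Foxo3. For Pik3ca they were Slfn4 (0.96) and Far1 (0.95), and for Akt1 Wdr89 and Elp5 (0.96 each). Mtor and Rptor had no such close neighbour. Nearest were Nt5m (0.83) and Slc37a1 (0.80) for Mtor, and Tm7sf3 (0.86) and Lmtk2 (0.85) for Rptor.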

How the data were processed

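RNA-seq libraries were made from total lung RNA (TRIzol, NEBNext Ultra RNA kit), per the labels' protocols. The authors used cutadapt, HISAT2 with build Rnor_6.0 and StringTie, per the submitters' processing notes, and deposited FPKM values for 22250 genes. Annotation release and use of strand: not given in the sources used here. No counting interval is given, since read totals were not analysed. From the steps between low values, the depth of the libraries was 0.877 to 1.11 times that of control 2.

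The deposited FPKM, without further scaling, were taken to log2(FPKM + 1). One model of the 3 groups was fitted to all 15 libraries in R 4.3.3 (limma 3.58.1, trended eBayes) over the 13172 genes passing the filter, two-sided, with Benjamini-Hochberg adjustment over all of them. Within-library ratios used FPKM without a pseudocount and exact two-sided permutation tests (scipy 1.17.1, Python 3.11.15), adjusted over 21. The fit was tested on simulated data. The 8 members, the role lists and the lists of long and short transcripts were chosen with earlier results of these data known. Named genes are the members, their nearest relatives, up to 3 genes per role list with the lowest p in COPD against control and in WDD against COPD, and the 2 most alike genes per member. Of 15 pairs of libraries with the same number, 1 had a correlation of deviations above 0.1. Such correlations cannot show whether same-numbered libraries were handled together, which the sources used here do not state. The main fit had no block. Alternatives were other pseudocounts and filters, 4 scalings of the libraries, fits of the 2 groups compared alone, library weights, a replicate block and leaving out each library in turn. Some genes of the route are not reported here.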

Additional observations from a re-analysis of the deposited data

Results flagged for a closer look

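Of 24 sets of 5 values, the 8 genes in 3 groups, 3 held a library far from the other 4 by Dixon's test at the 95% level (critical value 0.71), and chance alone flags about 1 set in 20. Foxo1 in control 1 was low, at 9.91 FPKM against 17.9 to 22.2 in the other control libraries. Tsc1 in control 1 was low too, at 5.65 FPKM. Control 1 also had the lowest long-minus-short transcript measure of the control libraries (-2.59), and its part in the 2 low values was not tested. Rictor in COPD 5 was high, at 2.14 FPKM against 0.783 to 0.907 in the other COPD libraries.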

How the results depend on the processing

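Over the 8 genes and 3 comparisons, 590 values under the alternatives kept direction and side of the threshold, 58 fell short of it, 7 newly passed it and 11 changed sign. Foxo1, Rictor and Tsc1 in COPD against control, and Foxo1, Foxo3, Rictor and Tsc1 in WDD against control, kept their call wherever they were tested. Sign changes in COPD against control were Pik3ca at 0.34 and Akt1 at 0.50 (median-of-ratios) and Pik3ca at 0.22 (quantile normalisation). In WDD against COPD they were Pik3ca at -0.41 and Akt1 at -0.33 (median-of-ratios), Pik3ca at -0.28, Rptor at -0.16 and Rictor at -0.21 (quantile normalisation), and Akt1 at -0.043 and Pik3ca at -0.14 (FPKM sum without mitochondrial genes). Akt1 in WDD against control was 0.17 (median-of-ratios). The cause was not tested. Genes called numbered 9833 in COPD against control, 8399 in WDD against COPD (5379 after quantile normalisation) and 4915 in WDD against control (7883 after scaling to the FPKM sum, 8209 with library weights). With one library left out they ranged from 9518 to 10225, 7705 to 8771 and 4045 to 6086. With a replicate block they were 9747, 8181 and 4637, and the block ended the calls of Foxo3 in WDD against COPD (limma adjusted p = 0.0561) and of Pik3ca in WDD against control (0.0533). Under sign flips within same-numbered pairs (replicate block), where 5 pairs cannot give a raw exact p under 0.0625, no ratio passed: Rictor to Rptor (-1.47 and -1.36 in COPD and WDD against control), Foxo1 to Foxo3 (-2.56, and 2.27 in WDD against COPD), Tsc1 to Tsc2 (-1.58 and -1.17), Akt1 to Akt2 (0.59), Pik3ca to Pik3cb (0.75 and 0.75) and Foxo1 to Akt1 (-3.32, 1.31 and -2.01), with adjusted exact p of 0.109, or 0.202 for Pik3ca to Pik3cb in COPD. With a pseudocount of 1, Tsc1 to Tsc2 in COPD was -1.12 (adjusted exact p = 0.0556), and Rictor to Rptor in WDD against COPD was -0.052. With one library left out, ratios in COPD against control ranged from -1.78 to -1.32 (Rictor to Rptor), -1.97 to -1.36 (Tsc1 to Tsc2), 0.64 to 0.87 (Pik3ca to Pik3cb) and 0.45 to 0.76 (Akt1 to Akt2). In WDD against COPD, where no call was made, Rictor to Rptor ranged from -0.046 to 0.42, Akt1 to Akt2 from -0.17 to 0.14 and Pik3ca to Pik3cb from -0.075 to 0.072. Leaving out control 1 and COPD 5 together, and averaging WDD 4 and WDD 5, were added after seeing how far the first 2 stood from their groups and how alike the last 2 were. An adjustment for protein length was not run. A filter on a mean FPKM of at least 5 left Rictor and Rptor untested.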
